A study of Mus musculus with 6 samples.

Results

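The transforming growth factor beta family was described in mouse bone marrow cells depleted of mature lineages through 10 genes: the ligands Tgfb1, Tgfb2 and Tgfb3, the receptors Tgfbr1, Tgfbr2 and Tgfbr3, and the intracellular signal carriers Smad2, Smad3, Smad4 and Smad7. They were chosen by name, and every probe set of the array whose gene symbol in the platform annotation, or whose current symbol for the same Entrez gene, was one of these names was taken. This gave 25 probe sets for the 10 genes, out of 18193 genes named on the array. RNA was measured on 6 one-colour Affymetrix mouse arrays, 1 sample per array, with 3 arrays of B.D(Chr5) and 3 of C57B/L6. B.D(Chr5) is a strain whose genetic background is labelled B.D and whose name refers to chromosome 5, and C57B/L6 is an inbred strain. Mice of both strains were female young adults of 6 to 16 weeks, untreated as far as the labels say, and the labels call the 3 samples of a strain biological replicates. Whether the RNA of a replicate came from 1 mouse or from several pooled mice is not stated, and the p-values reflect only how far these samples lay apart.

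The TGF-beta ligands are secreted in a latent form, bound to their own propeptide, and must be released before they can act. A free ligand binds the type II receptor, which then recruits and phosphorylates the type I receptor. The type I receptor phosphorylates the receptor SMADs, which join Smad4 and enter the nucleus to act on transcription. In the marrow the pathway is best known for holding haematopoietic stem cells in a quiescent state.

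As background for the ligands, the promoter sequences are given of Tgfb1, whose probe sets were above background, and of Tgfb2, whose probe sets were not, from 250 bases before to 50 after the gene's start. They are from RefSeq, build GRCm38.p6, at chr7:25686752-25687051 on the plus strand and chr1:186705940-186706239 on the minus strand. Capitals mark the GC box, spelled GGGCGG, and the TATA box, spelled TATAAA, each searched on both strands.
Tgfb1: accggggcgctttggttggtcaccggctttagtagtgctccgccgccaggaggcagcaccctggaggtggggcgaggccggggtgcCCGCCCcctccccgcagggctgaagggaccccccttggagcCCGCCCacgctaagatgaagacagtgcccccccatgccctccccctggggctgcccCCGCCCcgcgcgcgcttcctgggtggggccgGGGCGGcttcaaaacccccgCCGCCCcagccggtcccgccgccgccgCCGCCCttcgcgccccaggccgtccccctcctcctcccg
Tgfb2: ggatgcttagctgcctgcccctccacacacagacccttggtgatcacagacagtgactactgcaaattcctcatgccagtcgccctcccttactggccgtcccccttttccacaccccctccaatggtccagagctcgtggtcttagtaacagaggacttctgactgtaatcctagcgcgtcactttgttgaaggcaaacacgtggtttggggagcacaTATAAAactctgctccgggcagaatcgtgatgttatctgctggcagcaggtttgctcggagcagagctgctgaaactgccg
The Tgfb1 window held 6 GC boxes and 0 TATA boxes, at a GC content of 77%. The Tgfb2 window held 0 GC boxes and 1 TATA box, which begins 31 bases before the start, at a GC content of 54.3%. Among all 32851 promoter windows of this length in the table, 35.7% held a GC box and 13.6% a TATA box. These matches describe the letters of the reference strain and were not tested for any role in the signals.

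The signals used here are the deposited values, on a linear scale on which each array had been scaled to a trimmed mean of 500. The background level of an array was taken as the 95th percentile of its 27 bacterial control probe sets and lay between 23.4 and 38.0 on the B.D(Chr5) arrays, against 21.8 to 24.4 on the C57B/L6 arrays. A gene was counted as above background if at least 1 of its probe sets exceeded that level on all 6 arrays. By this rule 8 of the 10 family genes were above background, namely Tgfb1, all 3 receptors and all 4 SMADs, and Tgfb2 and Tgfb3 were not. Over all named genes the share was 63.2%. Of the 25 probe sets, 18 were above background on every array (72%), and over all probe sets of the array the share was 55.3%.

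**Figure D1:**
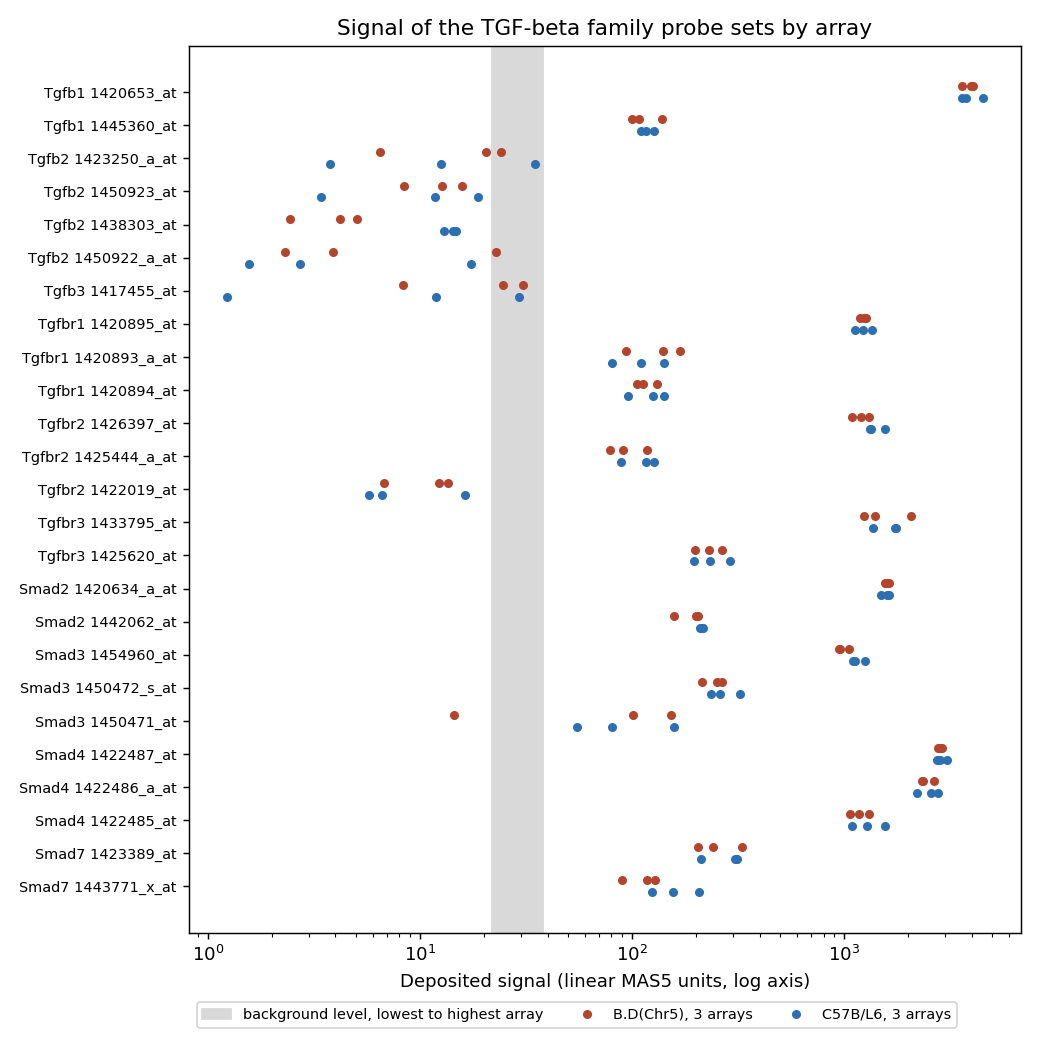
Deposited signal (linear MAS5 units, log axis) of the 25 probe sets on the 3 B.D(Chr5) and 3 C57B/L6 arrays, 1 point per array, with the range of background levels over the arrays, 21.8 to 38.0, in grey. The Tgfb2 and Tgfb3 points and those of Tgfbr2 probe set 1422019_at lie in or left of the grey band, and 18 probe sets lie right of their array's background level on all arrays.

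Lineage-depleted cells of both strains carried the stem and progenitor markers Kit, Flt3, Cd34, Meis1, Gata2 and Slamf1 above background. Of these, Slamf1 was higher in B.D(Chr5), with a log2 change of 1.15 on probe set 1425570_at (limma adjusted p = 0.0358). This was 1 of its 2 tested probe sets, and the other did not pass. The call was kept in 1 of 6 fits with an array left out. With all arrays kept it was lost without a filter on signal (lowest limma adjusted p = 0.0751) and without a trend in eBayes (0.168). The other 5 markers had negative changes and did not pass. The array signal is a bulk value, in which fewer cells of a type and less RNA per cell cannot be told apart. Markers of other blood cells were also above background: 5 of 5 for megakaryocytes and platelets, 4 of 4 for monocytes and macrophages, 4 of 4 for neutrophils and 5 of 5 for T and NK cells. So were all 3 B lineage and all 3 erythroid markers that were measured, and 6 of 8 of stroma and endothelium, where Col3a1 and Kdr were not. The summed megakaryocyte and platelet signal ranged from 3627 to 5459 in B.D(Chr5) and from 4414 to 5680 in C57B/L6. All 5 changes of these markers were negative, as were the 3 of erythroid markers. The T and NK sum ranged from 1027 to 1543 in B.D(Chr5) and from 1515 to 2295 in C57B/L6, with all 5 changes negative. The stromal and endothelial sum ranged from 3114 to 4664 in B.D(Chr5) and from 2032 to 3423 in C57B/L6, with 4 of 5 tested changes positive. The B lineage sum ranged from 1540 to 4286 in B.D(Chr5), where replicate 3 held the 4286, and from 1401 to 1699 in C57B/L6, with all 3 changes positive. The neutrophil sum did not overlap, with 34323 to 48281 in B.D(Chr5) and 27952 to 31629 in C57B/L6, and all 4 changes were positive. The signal of residual 18S ribosomal RNA ran from 1726 (replicate 1) to 20010.3 (replicate 2) in B.D(Chr5). In C57B/L6 it ran from 2454 (replicate 2) to 13058 (replicate 1). The part of these cell types and of 18S in the values below was not tested.

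The strains were compared on log2(signal + 16) with limma over the 22518 probe sets in the upper 50% by mean signal. The fit held strain alone, and its p-values were adjusted over all of them by the Benjamini-Hochberg method with a threshold of 0.05. Changes are B.D(Chr5) minus C57B/L6 on that scale, which understates changes of dim probe sets. Of the 25 family probe sets, 19 entered the test, from 8 genes. Of these, 0 passed, against 0.182% of all tested probe sets, and every one of the 19 had a limma adjusted p of 1.00. At an unadjusted p under 0.05, 1 of the 19 remained, against 4.73% of all tested probe sets. The median size of the change, without its sign, was 0.093 over the family probe sets and 0.095 over all tested probe sets.

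**Figure D2:**
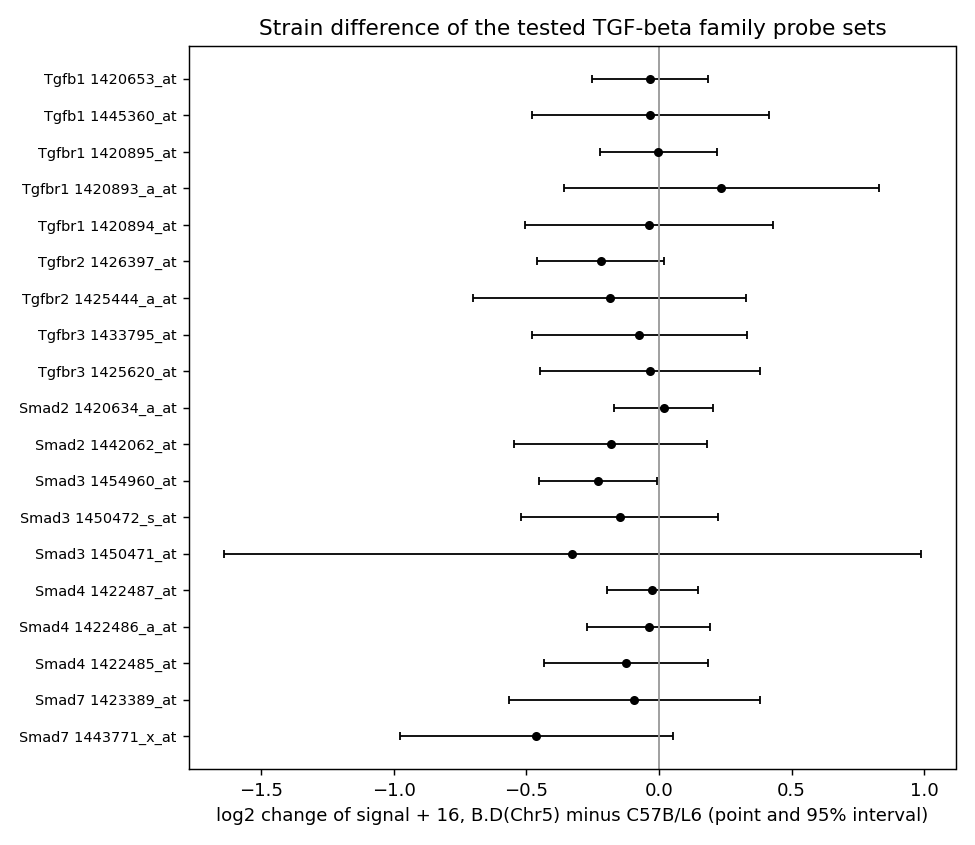
Change of log2(signal + 16), B.D(Chr5) minus C57B/L6, for the 19 tested probe sets, as points with 95% intervals from limma (3 arrays per strain). The intervals of 18 of the 19 include 0, and that of Smad3 probe set 1454960_at ends at -0.007.

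Among the ligands, Tgfb1, the isoform best known from blood cells and platelets, was the one with signal above background. Its probe set 1420653_at read 4029, 3948 and 3588 in B.D(Chr5), against 3762, 3613 and 4500 in C57B/L6. The strains overlapped and the highest value was that of C57B/L6 replicate 3. The log2 change was -0.033 (SE 0.098, 95% interval -0.25 to 0.19), so that a fold change below 0.839 or above 1.14 lay outside the interval. The second probe set, 1445360_at, read 108, 100.2 and 138 in B.D(Chr5) and 116, 110.5 and 126 in C57B/L6. Its log2 change was also -0.033 (95% interval -0.48 to 0.41), and both probe sets thus differed by less than the spread between replicates.

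Tgfb2, a ligand known mainly from development, lay at the level of the controls on all 4 of its probe sets. Signals ran from 2.33 to 24.2 in B.D(Chr5) and from 1.57 to 34.9 in C57B/L6, and 1 of the 24 readings, that of 1423250_a_at on C57B/L6 replicate 2, exceeded its array's background level. On probe set 1438303_at the strains did not overlap, with 5.06, 4.19 and 2.44 in B.D(Chr5) against 14.3, 14.8 and 13.0 in C57B/L6. All 6 of these readings were below background, so no fold change is given. Tgfb3, whose single probe set is 1417455_at, read 8.36, 24.7 and 30.6 in B.D(Chr5) and 29.3, 1.24 and 11.9 in C57B/L6, above background on 1 array, C57B/L6 replicate 1. No strain difference is read from signals at this level, and neither gene entered the test.

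Tgfbr1 encodes the type I receptor, the kinase that phosphorylates the receptor SMADs. Its probe set 1420895_at read 1191, 1239 and 1267 in B.D(Chr5), against 1124, 1231 and 1358 in C57B/L6. The B.D(Chr5) values lay within the range of the C57B/L6 values, and the log2 change was -0.003 (SE 0.098, 95% interval -0.22 to 0.22). The other probe sets went to either side, 1420893_a_at with a log2 change of 0.24 (95% interval -0.36 to 0.83) and 1420894_at with -0.038 (95% interval -0.51 to 0.43). Signals on these ran from 93.6 to 168 in B.D(Chr5) and from 80.6 to 141 in C57B/L6.

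Tgfbr2 encodes the type II receptor, which binds the ligand first. Probe set 1426397_at read 1092, 1309 and 1201 in B.D(Chr5), against 1333, 1318 and 1551 in C57B/L6. All B.D(Chr5) arrays lay below all C57B/L6 arrays, by as little as 1309 against 1318. The log2 change was -0.22 (SE 0.11, 95% interval -0.46 to 0.020, limma adjusted p = 1.00). Probe set 1425444_a_at went the same way, at -0.19 (95% interval -0.70 to 0.33), with overlapping signals of 78.5 to 117 in B.D(Chr5) and 88.6 to 127 in C57B/L6. The third, 1422019_at, was below background on all arrays, at 6.77 to 13.6 in B.D(Chr5) and 5.77 to 16.3 in C57B/L6, and says nothing of the strains.

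Tgfbr3, betaglycan, presents ligand to the type II receptor and has no kinase domain. It was the one family gene on chromosome 5, for which B.D(Chr5) is named. Probe set 1433795_at read 1398, 2074 and 1235 in B.D(Chr5), against 1756, 1373 and 1736 in C57B/L6. The highest and the lowest of the 6 values were both B.D(Chr5) arrays, replicates 2 and 3. The log2 change was -0.074 (SE 0.18, 95% interval -0.48 to 0.33), and that of 1425620_at was -0.035 (95% interval -0.45 to 0.38), with signals of 230.4, 267 and 199 in B.D(Chr5) and 289, 195 and 234 in C57B/L6.

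Smad2 and Smad3 are the receptor SMADs of the TGF-beta branch. Smad2 probe set 1420634_a_at read 1629, 1578 and 1560.5 in B.D(Chr5), against 1631, 1493 and 1588 in C57B/L6. These 6 values overlapped, and the log2 change was 0.018 (SE 0.083, 95% interval -0.17 to 0.20). On 1442062_at the values were 157, 199.9 and 205 in B.D(Chr5), all below the 217, 209.7 and 214 of C57B/L6. The gap between the strains was small beside the low reading of B.D(Chr5) replicate 1, and the log2 change was -0.18 (95% interval -0.55 to 0.18).

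Smad3 held the one family probe set with an unadjusted p under 0.05. Its probe set 1454960_at read 954, 945 and 1060 in B.D(Chr5), against 1099, 1124 and 1258 in C57B/L6. All B.D(Chr5) arrays lay below all C57B/L6 arrays. The log2 change was -0.23 (SE 0.10, 95% interval -0.45 to -0.007, limma adjusted p = 1.00). The other probe sets were lower too without passing. Probe set 1450472_s_at, whose suffix marks probes shared with other transcripts, read 265, 214 and 252 in B.D(Chr5) and 236, 324 and 259 in C57B/L6, a log2 change of -0.15 (95% interval -0.52 to 0.22). Probe set 1450471_at was the least steady of the family: it read 153, 101 and 14.5 in B.D(Chr5) and 158, 55.1 and 80.1 in C57B/L6, the 14.5 of B.D(Chr5) replicate 3 being below the background of that array. Its log2 change of -0.33 had an SE of 0.58.

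Smad4 is the partner that receptor SMADs of both the TGF-beta and the BMP branch share. Its 3 probe sets had the same sign, and 1422487_at had the narrowest interval of the tested family probe sets. Probe set 1422487_at read 2817, 2784 and 2879 in B.D(Chr5), against 2745, 2834 and 3056 in C57B/L6, a log2 change of -0.025 (SE 0.077, 95% interval -0.20 to 0.15). The strains overlapped here and on 1422486_a_at, at 2358, 2317 and 2655 in B.D(Chr5) and 2209, 2563 and 2778 in C57B/L6, with a log2 change of -0.039. On 1422485_at the values were 1316, 1070 and 1175 in B.D(Chr5) and 1278, 1085 and 1551 in C57B/L6, with a log2 change of -0.12 (95% interval -0.43 to 0.19).

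Smad7, the inhibitory SMAD, is itself a target of the pathway and blocks the type I receptor. Probe set 1423389_at read 241, 206 and 331 in B.D(Chr5), against 305, 211 and 312 in C57B/L6. In both strains replicate 2 was the lowest, the strains overlapped, and the log2 change was -0.093 (SE 0.21, 95% interval -0.57 to 0.38). Probe set 1443771_x_at, whose suffix marks probes that may hybridize to other transcripts, read 118, 89.9 and 128 in B.D(Chr5) and 124, 207 and 156 in C57B/L6. Its log2 change, -0.46 (SE 0.23, 95% interval -0.98 to 0.052), was not past the threshold.

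All 8 tested genes had several tested probe sets, which shared a sign in 6 genes and differed in Tgfbr1 and Smad2. With 17 of the 19 changes negative, a shared sign within a gene says little of agreement between its probe sets. Within a gene the log2 changes lay from 0.0003 (Tgfb1) to 0.37 (Smad7) apart. In all, 17 of 19 tested probe sets had a negative log2 change, and 2 a positive one, where 49.8% of all tested probe sets were negative. Their median was -0.074, beside 0.0004 over all tested probe sets, and over the probe set of highest mean signal of each of the 8 genes it was -0.054, with 7 of 8 negative. Probe sets of a gene are assigned to the same gene and all 19 share the same 6 arrays, so this count has no test. In 3 of the 19 the strains did not overlap, all 3 with B.D(Chr5) below (Tgfbr2 1426397_at, Smad2 1442062_at and Smad3 1454960_at). Over all tested probe sets the strains did not overlap in 9.38%, and B.D(Chr5) lay below without overlap in 5.24%.

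The count of negative changes moved with the arrays kept. C57B/L6 replicate 3 held the highest of the 6 values in 7 of the 19 family probe sets (36.8%) and in 17.7% of all tested probe sets. The family probe sets had a median deviation from their own 6-array mean of 0.11 on that array, on the log2 scale, and between -0.047 and 0.041 on the others. Without C57B/L6 replicate 3, 11 of 19 changes were negative with a median of -0.005. Leaving out a B.D(Chr5) array gave counts of 16 (replicate 1), 14 (replicate 2) and 13 (replicate 3), and leaving out C57B/L6 replicate 1 gave 15. Without C57B/L6 replicate 2 the count was 17 and the median -0.15.

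**Figure D3:**
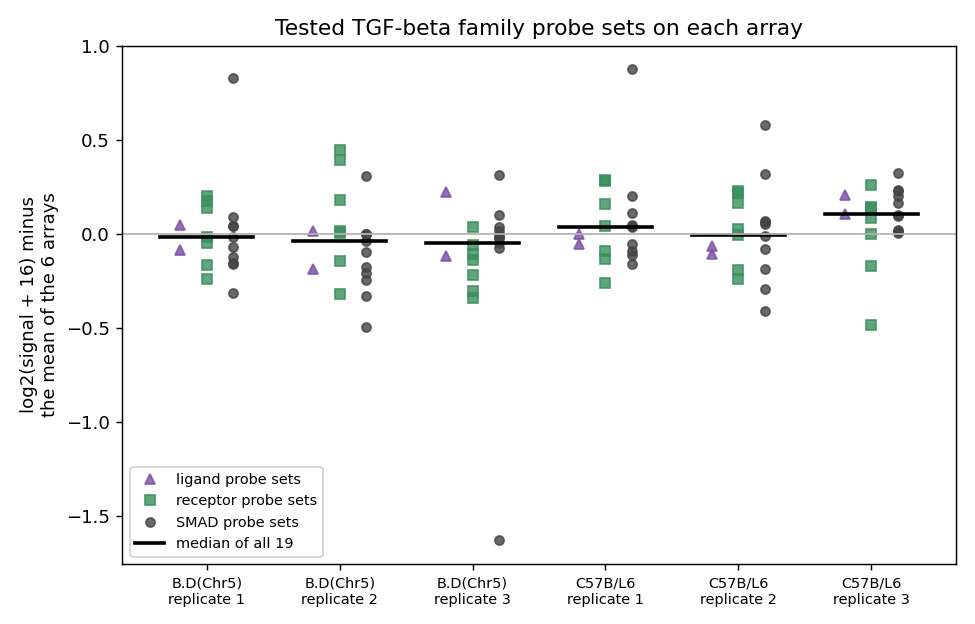
log2(signal + 16) of each of the 19 tested family probe sets minus its mean over the 6 arrays, by array, with symbols for ligands, receptors and SMADs and a bar for the median of all 19. The median is 0.11 on C57B/L6 replicate 3 and between -0.047 and 0.041 on the other arrays, and the lowest point is Smad3 probe set 1450471_at on B.D(Chr5) replicate 3.

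The rest of the pathway was read from 4 lists by role, holding 48 genes, of which 46 were measured, 34 were above background on at least 1 probe set and 33 were tested. Of these 33, 0 passed in either direction, against 0.223% of all tested named genes, and 2 had a probe set at an unadjusted limma p under 0.05, against 7.75% of all tested named genes. Over the probe set of highest mean signal per gene, 17 were positive and 16 negative, with a median of 0.014, beside -0.008 over all tested genes. Values below are those of the 2 genes of smallest p in each list, each on its probe set of smallest p. They were thus picked by p, and the other tested probe sets of Ltbp3, Smad5 and Ski are not shown.

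Genes that hold or release latent ligand were above background for 6 of 10 measured genes, with 3 changes positive and 3 negative and a median of -0.072. Nrros, which tethers latent TGF-beta1 on myeloid cells, read 4036, 3546 and 3668 in B.D(Chr5), against 3340, 3171 and 3429 in C57B/L6. Its strains did not overlap, and its log2 change was 0.18 (SE 0.080, 95% interval -0.003 to 0.36, limma adjusted p = 1.00). Ltbp3, a latent TGF-beta binding protein, had a log2 change of -0.25 (95% interval -0.60 to 0.10). The integrin subunit genes Itgb6 and Itgb8, whose products activate latent ligand, were not above background.

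In the BMP and activin branch 8 of 12 genes were above background and tested, 5 positive and 3 negative, with a median of 0.025. Smad5, a receptor SMAD of BMP signals, read 634, 754 and 736 in B.D(Chr5) and 579, 542 and 650.5 in C57B/L6, a log2 change of 0.25 (95% interval -0.014 to 0.52). Smad6, the inhibitory SMAD of that branch, read 92.5, 97.0 and 103 in B.D(Chr5), all above the 61.0, 76.9 and 83.8 of C57B/L6, with a log2 change of 0.34 (95% interval -0.14 to 0.83). Neither passed the threshold.

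Cofactors and inhibitors were above background for 11 of 12 genes, with 5 of 11 tested genes positive and 6 negative and a median of -0.037. The SMAD corepressor gene Ski read 372, 379 and 404 in B.D(Chr5), all below the 417, 489 and 493 of C57B/L6, with a log2 change of -0.26 (95% interval -0.54 to 0.015). Smurf2, a ubiquitin ligase of receptors and SMADs, had a log2 change of 0.21 (95% interval -0.045 to 0.47) on probe set 1429045_at and 0.045 on its probe set of highest mean signal.

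Among genes known as targets of the pathway 9 of 12 measured genes were above background, and of 8 tested, 4 were positive and 4 negative, with a median of -0.049. These signs take no account of whether the pathway raises or lowers a gene, so they are no measure of its activity. Tgfbi, a matrix protein gene named for its induction by TGF-beta, read 441, 223 and 533 in B.D(Chr5) on probe set 1415871_at, against 127, 241 and 206 in C57B/L6. Replicate 2 of B.D(Chr5) lay within the C57B/L6 range, and the log2 change was 0.96 (SE 0.32, 95% interval 0.25 to 1.67, limma adjusted p = 0.852). The other Tgfbi probe sets had log2 changes of 0.46 to 0.49. Tgfbi is also expressed by monocytes and macrophages, whose 4 markers all had positive changes, with a sum of 13574 to 17048 in B.D(Chr5) and 12691 to 15240 in C57B/L6; their part in its value was not tested. Id2, an inhibitor of helix-loop-helix transcription factors, went the other way on 1422537_a_at, at 860.4, 744 and 686 in B.D(Chr5) against 897, 904 and 1211 in C57B/L6. Its log2 change was -0.38 (SE 0.14, 95% interval -0.70 to -0.062, limma adjusted p = 0.929), beside -0.50 on 1435176_a_at and 0.0004 on 1453596_at. Neither gene passed the threshold.

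**Figure D4:**
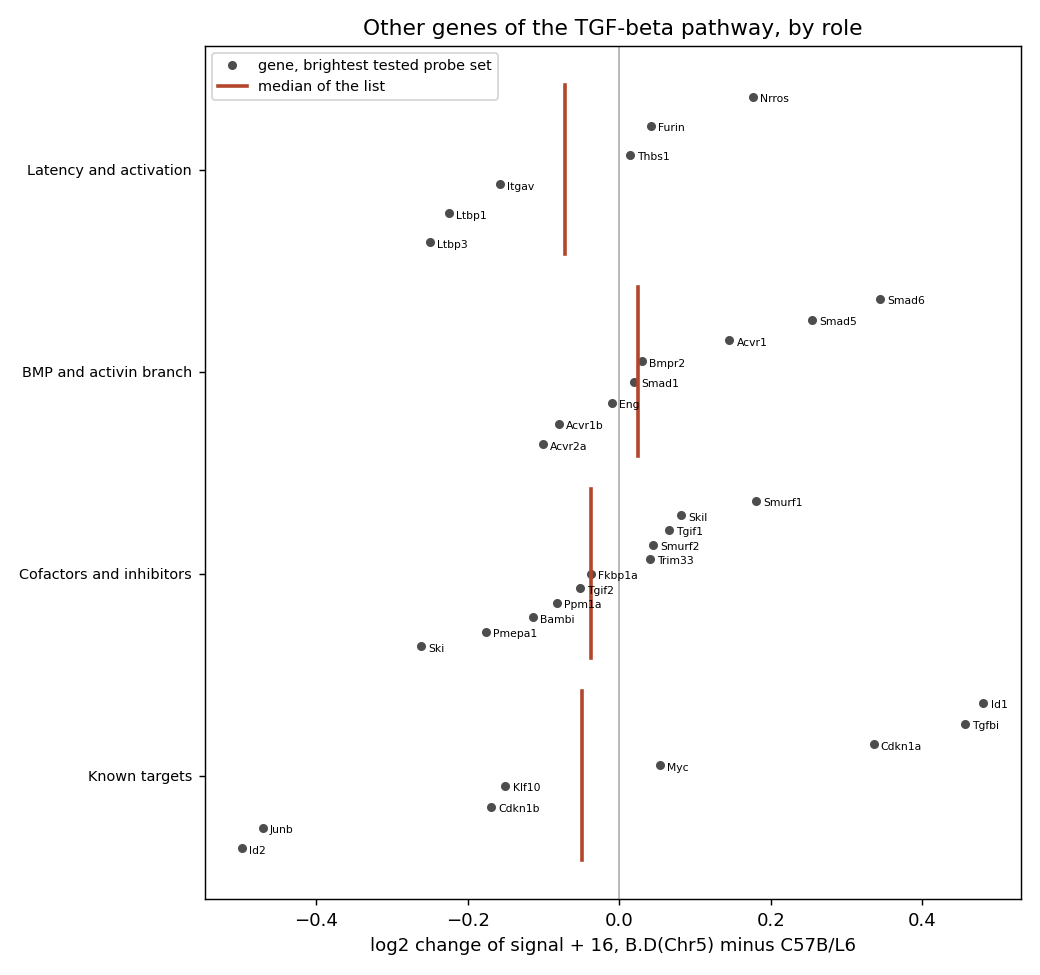
Change of log2(signal + 16), B.D(Chr5) minus C57B/L6, for the 33 tested genes of the 4 pathway lists, each on its probe set of highest mean signal, with the median of each list as a bar. The medians lie between -0.072 and 0.025, and of the genes shown 0 passed the threshold.

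As a description of likeness, the profile over the 6 arrays of log2(signal + 16) was compared by Pearson's r between the family probe set of highest mean signal in each role and all other tested, named genes. The genes most like Tgfb1 (1420653_at) were Polr2e, a shared subunit of the RNA polymerases, with r = 0.986 and Ddx49, an RNA helicase gene, with r = 0.979. For Tgfbr3 (1433795_at) they were Ggct (r = 0.997) and Marchf6 (r = 0.994), and for Smad4 (1422487_at) Lrrk1 (r = 0.997) and Prkx (r = 0.995). These are the highest values among 10743 tested genes over 6 arrays that all genes share, and have no test.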

How the data were processed

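The deposited values are linear intensity readings, 1 per probe set and array, which the authors derived by MAS5, per the submitters' processing notes, its version, settings and genome build not given in the sources used here. On each array they average 500 after trimming 2% at each end. Of 45101 probe sets, 64 controls were left out; 34945 of the others had 1 gene symbol in the platform annotation, 932 several and 9160 none. Symbols were updated through Entrez identifiers to RefSeq GRCm38.p6, which held 34741. Detection calls were not used, and probe sets without 1 symbol were not named.

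Signals were turned into log2(signal + 16), and the upper 50% of probe sets by mean signal over the 6 arrays (22518) were fitted in limma 3.58.1 (R 4.3.3; lmFit, eBayes with trend, two-sided, Benjamini-Hochberg over all tested, 95% intervals). The test was tried on simulated data. Precision is limited by having 3 arrays per strain. No pair of arrays was identical (0 pairs).

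The family's members, the pathway and marker lists were chosen with earlier results of these data known. Named are all members, and in each pathway list every gene that passed or otherwise the 2 of smallest p, beside genes named as examples after their values were seen (Itgb6, Itgb8). Some genes of the marker and pathway lists are not reported here. Alternatives were pseudocounts of 1 and 64, no filter, quantile and median scaling, no trend, a block for the replicate number, the removal of _x_at probe sets, other background levels and leaving out each array.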

Additional observations from a re-analysis of the deposited data

How the results depend on the processing

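The count of family probe sets past the threshold was 0 in all 14 alternatives to the fit, as was that of pathway genes. The lowest adjusted p of any family probe set over these was 0.695. Over all probe sets 41 passed, against 26 without a trend in eBayes, 25 with the replicate number as a block, and 22 to 74 with 1 array left out (74 when B.D(Chr5) replicate 2 was left out, 22 for B.D(Chr5) replicate 1, 23 for C57B/L6 replicate 2 and 24 for C57B/L6 replicate 3); the cause was not tested. Deviations from the strain mean correlated at -0.11, -0.20 and 0.19 between same-numbered arrays of the strains. Differently numbered arrays reached 0.29 (B.D(Chr5) replicate 2 with C57B/L6 replicate 1) and 0.25 (B.D(Chr5) replicate 1 with C57B/L6 replicate 2). With the 0.19 between the arrays of replicate 3, these were the only positive values, and together they matched each array with 1 of the other strain. Such deviations cancel out within a strain, so the values depend on each other, and whether arrays were handled together was not tested. The main fit took the arrays as unpaired. The block used the replicate number alone, and other matchings of arrays were not tested. With all arrays kept, 150 of 151 log2 changes of family probe sets kept their sign, and that of Tgfbr1 1420895_at was 9.84e-04 after quantile normalization.

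With 1 array left out, 94 of 114 log2 changes kept their sign, and 12 probe sets had a range across 0. These ran from -0.018 to 0.045 for Smad2 1420634_a_at, -0.095 to 0.062 for Tgfb1 1420653_at, -0.15 to 0.051 for Tgfb1 1445360_at, -0.18 to 0.067 for Tgfbr1 1420894_at, -0.069 to 0.066 for Tgfbr1 1420895_at, -0.25 to 0.0063 for Smad4 1422485_at, -0.13 to 0.035 for Smad4 1422486_a_at, -0.058 to 0.019 for Smad4 1422487_at, -0.27 to 0.049 for Smad7 1423389_at, -0.16 to 0.10 for Tgfbr3 1425620_at, -0.29 to 0.079 for Tgfbr3 1433795_at and -0.82 to 0.41 for Smad3 1450471_at. Those of Tgfbr2 1426397_at (-0.28 to -0.14) and Smad3 1454960_at (-0.28 to -0.17) stayed negative, as did Tgfbr2 1425444_a_at (-0.32 to -0.073), Smad2 1442062_at (-0.25 to -0.071), Smad3 1450472_s_at (-0.24 to -0.027) and Smad7 1443771_x_at (-0.62 to -0.29), while Tgfbr1 1420893_a_at stayed positive (0.053 to 0.44). The count of 8 genes above background was 8 against the highest control, 9 against the median control and 6 if all probe sets of a gene had to be above it. Signals near the controls, those of Tgfb2, Tgfb3 and Smad3 1450471_at, limit what can be said of these.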
